A study of Rattus norvegicus with 24 samples.

Results

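The genes described here are 10 markers of Kupffer cells and macrophages in rat liver: Csf1r, Adgre1, Cd68, Clec4f, Cd163, Msr1, Mrc1, C1qa, C1qb and C1qc. They were chosen by name as markers of these cells, and a probe set counted for a gene only where the array annotation pairs it with that symbol alone. All 10 were measured, each by 1 probe set, among 17245 genes in all. Kupffer cells are the resident macrophages of the liver, which sit in the sinusoids and take up particles, old red cells and bacterial products from portal blood. They depend on signalling through the CSF1 receptor for survival and carry scavenger receptors and the opsonin C1q. Most of the markers are shared with macrophages of other tissues and with monocytes that settle in the liver, and Clec4f is the one most restricted to Kupffer cells in rodents.

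The livers came from 24 male Wistar rats, and the RNA of each was put on 1 whole-transcript array. The groups, of 6 animals each, ate 5% protein for 4 weeks, 20% protein for 4 weeks, 5% protein for 1 week, or 20% protein for 1 week. These percentages and times come from the titles and treatment labels. The description codes read 4 and 18 where the titles read 5 and 20, and the design text speaks of 4 weeks alone. The series title concerns fatty liver and ATP loss in malnutrition, and the labels name no allele and no drug. Whole liver was used, in which hepatocytes make up most of the tissue, and fewer macrophages and less marker RNA per macrophage cannot be told apart in these values. The values are log2 of the intensity after RMA, a method that subtracts background, equalises the arrays and summarises the probes of a set. RMA intensities carry no detection call, and the mean intensities of the 10 markers lay at or above the 76.1 percentile of all genes.

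The 3 subunit genes of C1q lie side by side on chromosome 5 (GRCr8, RefSeq): C1qb at chr5:154402276-154407827, C1qc at chr5:154410845-154414208 and C1qa at chr5:154417086-154419933. The other members lie on 6 further chromosomes, with Cd163 and Clec4f both on chromosome 4. RefSeq promoters (GRCr8), which run from 250 bases before to 50 after the gene start, were at hand for 8 of the 10 genes, and C1qc and Msr1 had none in the table. They were searched on both strands for GAGGAA, the core of sites for PU.1 (the product of Spi1, a factor that macrophages need), and for TGCTGA, a half-site of MAF factors. The promoters of 4 genes are shown as examples. Adgre1 and Cd68 had values that went together between animals. C1qa and C1qb, which lie on either side of C1qc, had values with a correlation near 0. Capitals mark the matches, and no matches overlapped.
Adgre1 promoter, chr9:2329190-2329489, plus strand: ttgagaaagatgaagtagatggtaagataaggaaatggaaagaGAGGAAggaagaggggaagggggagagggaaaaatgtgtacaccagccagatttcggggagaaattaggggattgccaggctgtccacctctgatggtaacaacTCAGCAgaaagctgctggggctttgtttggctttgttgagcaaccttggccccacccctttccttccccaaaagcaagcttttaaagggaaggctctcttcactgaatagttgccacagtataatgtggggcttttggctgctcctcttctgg
Cd68 promoter, chr10:54882392-54882691, minus strand: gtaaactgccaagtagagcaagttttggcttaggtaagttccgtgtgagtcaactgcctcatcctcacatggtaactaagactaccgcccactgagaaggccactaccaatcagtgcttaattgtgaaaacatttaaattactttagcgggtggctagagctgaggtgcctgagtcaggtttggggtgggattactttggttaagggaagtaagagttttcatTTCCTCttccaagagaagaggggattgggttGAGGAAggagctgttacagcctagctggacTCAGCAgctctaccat
C1qa promoter, chr5:154419884-154420183, minus strand: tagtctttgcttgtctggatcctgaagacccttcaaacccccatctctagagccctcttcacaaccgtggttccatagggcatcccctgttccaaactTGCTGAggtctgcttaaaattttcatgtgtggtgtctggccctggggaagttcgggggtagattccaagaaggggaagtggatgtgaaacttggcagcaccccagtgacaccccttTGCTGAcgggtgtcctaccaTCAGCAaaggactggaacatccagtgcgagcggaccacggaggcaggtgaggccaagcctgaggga
C1qb promoter, chr5:154407778-154408077, minus strand: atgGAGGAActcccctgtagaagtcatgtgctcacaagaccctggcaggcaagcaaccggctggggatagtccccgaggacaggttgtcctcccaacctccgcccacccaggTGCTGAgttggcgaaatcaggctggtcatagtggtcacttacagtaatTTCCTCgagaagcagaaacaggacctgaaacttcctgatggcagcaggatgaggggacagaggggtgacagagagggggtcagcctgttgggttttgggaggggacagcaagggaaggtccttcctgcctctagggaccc
GAGGAA or its reverse complement was present in 5 of the 8 promoters (Adgre1, C1qb, Cd68, Csf1r and Mrc1), against 27.6% of 33469 RefSeq promoters of the same length. TGCTGA or its reverse complement was present in 4 of the 8 (Adgre1, C1qa, C1qb and Cd68), against 18.4% of all. The C1qa promoter held 3 matches to the MAF half-site, of which 1 began 16 bases before the gene start, and had no GAGGAA in this window. The C1qb promoter held 2 matches to GAGGAA and 1 to TGCTGA. The Cd68 promoter held GAGGAA on the opposite strand from 27 bases before the start and on the gene's own strand from base 5 after it. It also held TGCTGA on the opposite strand from base 35 after the start. These matches describe the letters in the window.

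The comparison of the diets at 4 weeks asks how the markers stand in the liver after prolonged low protein feeding. All 10 were lower on 5% protein, by 1.26-fold (Mrc1) to 1.73-fold (Adgre1, C1qa and Clec4f). A call was an adjusted p below 0.05 in limma (Benjamini-Hochberg over all 17245 genes), and 10 of the 10 markers were called lower, against 12.4% of all genes called lower and 13.4% called higher. The median log2 difference of the 10 (5% minus 20% protein) was -0.55, while that of all genes was -0.01. For 8 of the 10, every animal on 5% protein lay below every animal on 20% protein, which 5.88% of all genes showed in that direction.

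Csf1r, the receptor for CSF1 and IL-34 that keeps macrophages alive, had lowest, median and highest log2 intensities of 8.81, 9.16 and 9.29 on 5% protein at 4 weeks, against 9.44, 9.50 and 10.37 on 20% protein. The diets did not overlap, and animal 63 on 20% protein stood at 10.37 with the next animal of its group at 9.54. The fitted difference was -0.51 ± 0.18 (SE, adjusted p = 0.0388, n = 6 per group). Without animal 63 it was -0.36 and the adjusted p was 0.120, so that this call rests on that animal. It was also lost without any of the animals 22, 31, 32 and 59 of the 5% group, with adjusted p between 0.0548 and 0.0941.

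Adgre1, which encodes an adhesion receptor used to identify rodent macrophages, had values of 7.37, 7.80 and 8.03 (lowest, median, highest) on 5% protein, against 8.08, 8.56 and 9.13 on 20% protein. The highest animal on 5% protein lay just below the lowest on 20% protein, and the fitted difference was -0.79 ± 0.18 (adjusted p = 0.00175). Cd68, a lysosomal membrane glycoprotein of macrophages, had 8.51, 8.65 and 8.78 on 5% protein, against 8.79, 8.97 and 9.72 on 20% protein. Its highest animal was again animal 63, and its difference of -0.43 ± 0.14 (adjusted p = 0.0188) became -0.30 with an adjusted p of 0.0549 without that animal. Clec4f, a C-type lectin that binds glycans on the Kupffer cell surface, had 8.86, 9.15 and 9.50 on 5% protein, against 9.65, 9.91 and 10.38 on 20% protein. The groups did not overlap, with a difference of -0.79 ± 0.14 (adjusted p = 0.000210).

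The scavenger receptors differed by -0.50 to -0.33. Msr1, the class A receptor that takes up modified lipoproteins, had 8.55, 8.67 and 8.74 on 5% protein, against 8.89, 9.19 and 9.33 on 20% protein. Its 6 animals on 5% protein were the closest together of any group and marker, with an SD of 0.07, and the difference was -0.50 ± 0.08 (adjusted p = 6.66e-05). Cd163, which clears haemoglobin bound to haptoglobin, had 8.27, 8.65 and 8.77 on 5% protein, against 8.76, 9.02 and 9.23 on 20% protein. The highest animal on 5% protein lay just above the lowest on 20% protein, and the difference was -0.44 ± 0.12 (adjusted p = 0.00618). Mrc1, the mannose receptor, which the sinusoidal endothelium of the liver also makes, had 9.26, 9.44 and 9.53 on 5% protein, against 9.52, 9.79 and 9.91 on 20% protein. It overlapped by 1 animal of each diet and had the smallest difference, -0.33 ± 0.09 (adjusted p = 0.00632).

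C1q, assembled from the A, B and C chains, starts the classical complement pathway and is made largely by macrophages. C1qa had 8.97, 9.14 and 9.39 on 5% protein, against 9.57, 9.99 and 10.31 on 20% protein, a difference of -0.79 ± 0.13 (adjusted p = 5.63e-05). C1qc had 8.57, 8.86 and 9.02 on 5% protein, against 9.21, 9.41 and 9.84 on 20% protein, a difference of -0.60 ± 0.13 (adjusted p = 0.000904). C1qb had 8.89, 9.07 and 9.25 on 5% protein, against 9.38, 9.49 and 10.33 on 20% protein, a difference of -0.60 ± 0.15 (adjusted p = 0.00389). None of the 3 chains overlapped between the diets. For C1qb the 20% animals were split, with animals 29 and 63 at 10.01 and 10.33 and the other 4 between 9.38 and 9.52.

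**Figure D1:**
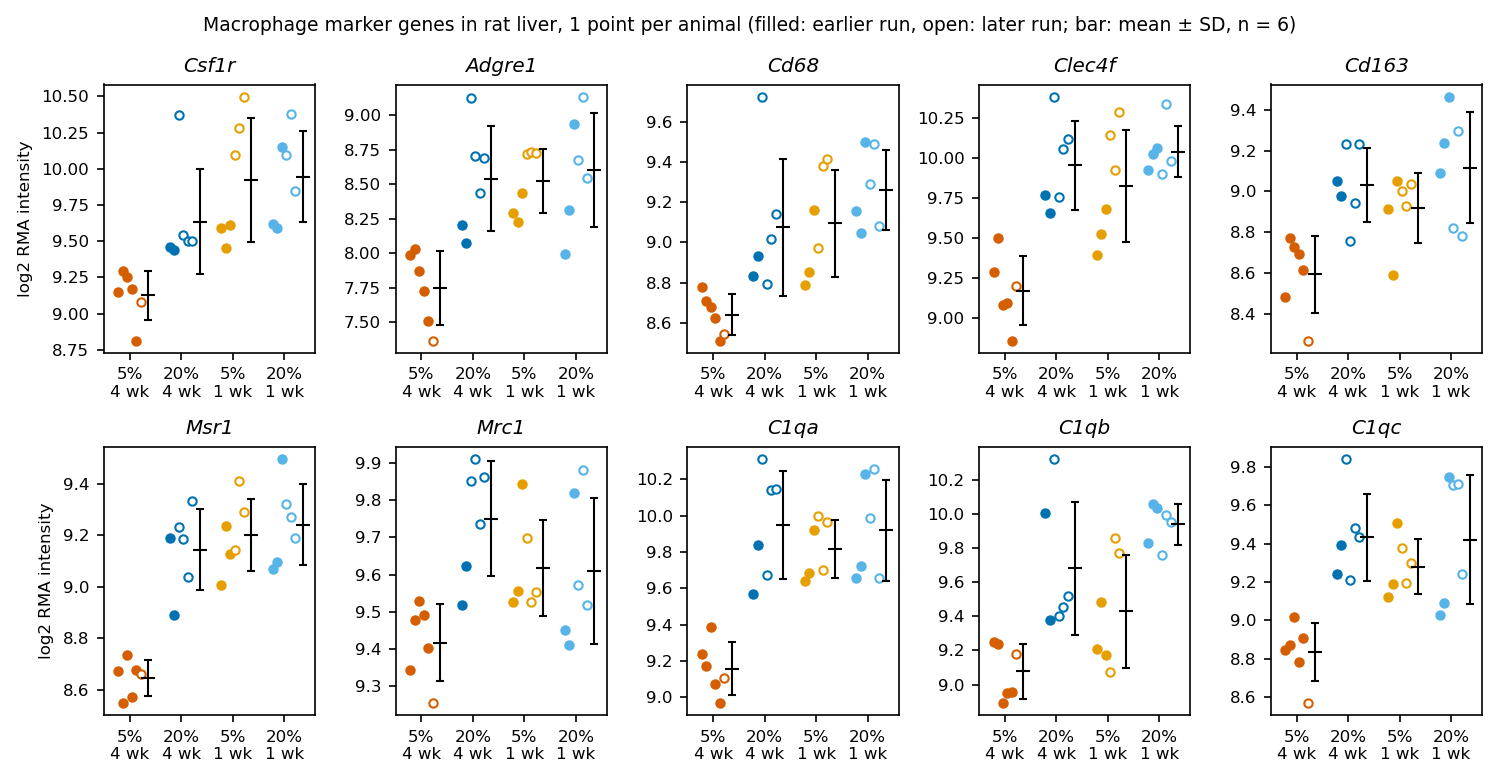
Log2 RMA intensity of the 10 markers (vertical axis, own scale per gene) in each of 24 animals, by diet and weeks, with the mean ± SD of 6 animals beside each group. Filled points are the earlier run of animal numbers of that week and open points the later run. The 5% protein animals at 4 weeks form the lowest group for every marker, and the high open point in the 20% group at 4 weeks is animal 63 for Csf1r and Cd68.

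The titles carry animal numbers that fall into 4 runs, and the diets are spread unevenly over them at 4 weeks. Animals 22 to 32 (the first run) hold 5 on 5% protein and 2 on 20% protein, and animals 59 to 73 (the third run) hold 1 and 4. Within the first run all 10 differences were below 0, with a median of -0.38, and C1qa, Clec4f and Msr1 were called lower, where 7.54% of all genes were called lower. Within the third run all 10 were below 0, with a median of -0.71. That run has a single 5% animal, number 59, which the fit assumes to vary like the other groups, and on that assumption 7 were called lower, where 5.49% of all genes were. Adgre1 had the widest gap between the runs, at -0.32 ± 0.20 in the first and -1.37 ± 0.27 in the third, where the standard error again comes from the other groups. With run as a covariate 7 of the 10 remained called, while Cd68 (-0.37, adjusted p = 0.0965), Csf1r (-0.43, 0.0753) and Mrc1 (-0.29, 0.0544) did not, with differences close to those without the covariate. The difference of the diet effect between the runs, which rests on the same single animal, was called for 0 of the 10 markers in limma, with an unadjusted p under 0.05 for 2, where 0.0232% of all genes were called lower and 0.00580% higher.

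At 1 week the same comparison called 0 of the 10 markers in limma, where 2.44% of all genes were called lower and 1.86% higher. With an unadjusted p under 0.05 there was 1, C1qb, and all 10 overlapped between the diets, where 1.36% of all genes were lower and 1.20% higher without overlap. The median log2 difference of the 10 was -0.12, and that of all genes was -0.01. C1qb had lowest, median and highest values of 9.07, 9.35 and 9.86 on 5% protein, against 9.76, 9.98 and 10.06 on 20% protein. Of the 6 animals on 5% protein 4 lay below every animal on 20% protein, and the difference was -0.51 ± 0.15 with an adjusted p of 0.0538. With animal 75 left out it was called (adjusted p = 0.0277), and likewise with animal 76 left out (0.0416). Within the second run (animals 49 to 54) it was -0.69 ± 0.22 and within the fourth (animals 74 to 79) -0.33 ± 0.22, and 0 of the 10 markers were called in either, with 3 and 0 at an unadjusted p under 0.05, where 4.71% and 4.45% of all genes were called lower and 2.86% and 4.04% higher.

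The 9 other markers had differences between -0.22 (Clec4f) and 0.01 (Mrc1) at 1 week, with standard errors of 0.08 to 0.18. C1qa had 9.64, 9.81 and 9.996 on 5% protein, against 9.66, 9.85 and 10.26 on 20% protein, and the groups overlapped over most of their range. Csf1r had 9.46, 9.86 and 10.50 on 5% protein, against 9.59, 9.97 and 10.38 on 20% protein. Its 5% animals were split by run, with 10.10 to 10.50 in the fourth run against 9.46 to 9.61 in the second. Later minus earlier run was called for 0 of the 10 markers in each of the 4 groups in limma, with 0 (5% protein, 4 weeks), 3 (20% protein, 4 weeks), 2 (5% protein, 1 week) and 0 (20% protein, 1 week) at an unadjusted p under 0.05. Of all genes 0%, 0.841%, 0.342% and 4.30% were called higher in the later run in these groups, and 0%, 0.957%, 0.441% and 6.53% lower. On 5% protein at 4 weeks the later run is animal 59 alone, so its counts of 0 say little. At 1 week each diet has its own set of well rows in the titles, so that diet and well row cannot be told apart there.

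**Figure D2:**
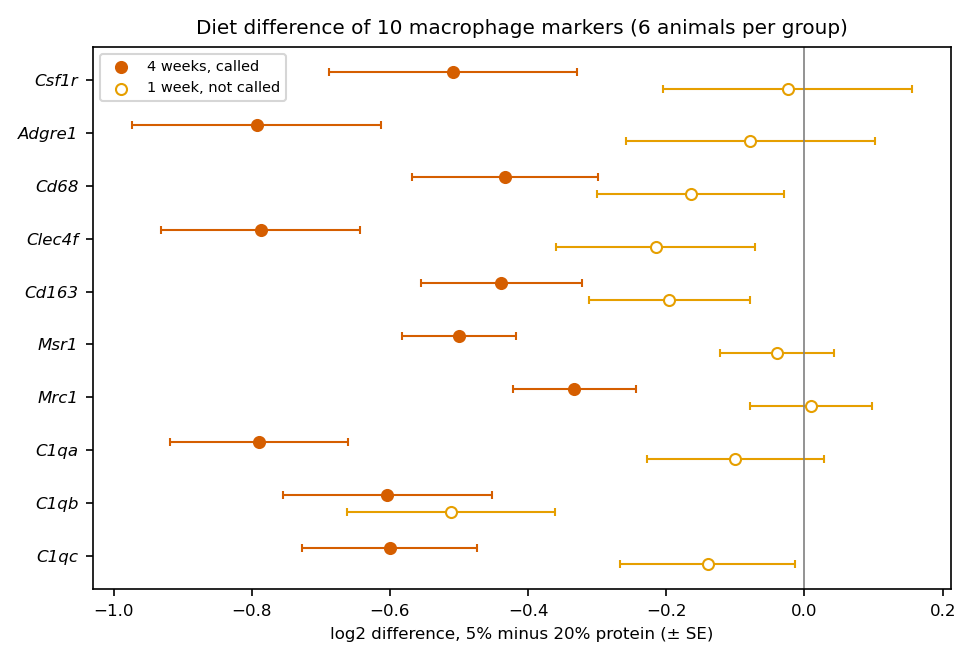
Log2 difference of each marker, 5% minus 20% protein, with its standard error (horizontal axis, 6 animals per group), at 4 weeks and at 1 week. Filled points were called by limma. All 10 points at 4 weeks lie between -0.79 and -0.33, while at 1 week C1qb at -0.51 stands apart from the other 9.

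The interaction of diet and time tests whether the diet difference at 4 weeks differs from that at 1 week. It was below 0 for all 10 markers, with a median of -0.46 and 6 with an unadjusted p under 0.05. After adjustment 2 were called lower, where 2.20% of all genes were: C1qa at -0.69 ± 0.18 (adjusted p = 0.0274) and Msr1 at -0.46 ± 0.12 (adjusted p = 0.0231). Adgre1 had -0.71 ± 0.25 with an adjusted p of 0.0970. C1qb had the value nearest to 0, -0.09 ± 0.21, its diet difference being -0.60 at 4 weeks and -0.51 at 1 week. With run as a covariate 0 were called, with -0.59 (adjusted p = 0.0963) for C1qa and -0.41 (adjusted p = 0.0759) for Msr1, and C1qa also lost its call without any of animals 31, 32, 52, 72 or 73 (adjusted p up to 0.0529). Without animal 78 the called markers were 4, with Adgre1 (adjusted p = 0.0475) and Mrc1 (adjusted p = 0.0498) beside these 2.

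Set along time, the 5% animals at 4 weeks were lower than the 5% animals at 1 week for all 10 markers, with a median of -0.51. These are the same 4 week animals as in the diet comparison, so the values are not independent of it. Each run of animal numbers holds 1 time only, so that time and run cannot be told apart on either diet. Called lower were 7 of the 10, where 4.13% of all genes were, and Adgre1, C1qa, C1qc, Cd68, Csf1r and Msr1 did not overlap, which 1.94% of all genes showed in that direction. Csf1r differed by -0.80 ± 0.18 (adjusted p = 0.00818) and Msr1 by -0.56 ± 0.08 (adjusted p = 0.000332). C1qb (-0.35, adjusted p = 0.166), Cd163 (-0.33, 0.0840) and Mrc1 (-0.20, 0.179) were not called. The calls of C1qc and Cd68 are weak: C1qc (-0.45, adjusted p = 0.0303) lost its call without any of animals 31, 32, 54, 59 or 74 (adjusted p up to 0.0726), and Cd68 (-0.45, adjusted p = 0.0376) without any of 23, 31, 32, 54, 59, 75 or 76 (adjusted p up to 0.0893), while Cd163 was called without animal 50 (0.0455). On 20% protein, 4 weeks minus 1 week gave a median of -0.08 and called 0 of the 10 in limma, with none at an unadjusted p under 0.05, where 1.50% of all genes were called lower and 1.02% higher. The largest values there were Csf1r at -0.31 ± 0.18 and C1qb at -0.26 ± 0.15.

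In order of group means, the 5% animals at 4 weeks were lowest for every marker. The spread of the other 3 groups varied with the marker. C1qa averaged 9.95 ± 0.30 on 20% protein at 4 weeks, 9.82 ± 0.16 on 5% protein at 1 week and 9.92 ± 0.28 on 20% protein at 1 week (SD, n = 6). C1qb averaged 9.68 on 20% protein at 4 weeks, 9.43 on 5% protein at 1 week and 9.94 on 20% protein at 1 week, against 9.08 in the lowest group, so that these 3 lay wider apart than the lowest from the next. Csf1r averaged 9.63, 9.92 and 9.95 in the same order, against 9.13 in the lowest group. Summed over the 10 markers on the linear scale, intensity was 4418 to 5204 on 5% protein at 4 weeks, against 6277 to 9661 on 20% protein. At 1 week the sum was 5879 to 8209 on 5% protein and 6602 to 9183 on 20% protein.

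Whether the markers move together between animals of a group was asked with log2 values centred on their group mean, over all 24 animals. Of the 45 pairs, 44 had a correlation above 0, and the median Pearson's r was 0.52. Over 148686390 pairs of all genes the median was 0.009 and 51.3% were above 0. After Benjamini-Hochberg adjustment over the 45 pairs, 23 were called by a permutation test that shuffled animals within groups (100000 draws, two-sided), and 26 by Spearman's rho, whose median was 0.53. The smallest called r, 0.52, was reached by 2.71% of all gene pairs. All values come from the same arrays, so pairs share the quality of each array. With array medians centred the median r was 0.49 with 20 pairs called, and with quantile normalization 0.52 with 24. The part of array quality was not tested beyond these settings and the centring below.

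Of the 4 closest pairs, 3 held Csf1r, and the other was C1qa with C1qc. Csf1r with Cd68 had r = 0.85 (permutation p = 0.00011, adjusted 0.000825) and rho = 0.76 (permutation p = 0.00045). Csf1r with Adgre1 had r = 0.82 and rho = 0.83, both at 1e-05, the smallest p these draws can give. Csf1r with Clec4f had r = 0.79 (permutation p = 5e-05) and rho = 0.73 (permutation p = 0.00019). Adgre1 with Cd68 had r = 0.74 (permutation p = 0.00011) and rho = 0.72 (permutation p = 0.00024). Cd68 was called with 8 of its 9 partners, Adgre1 and C1qa with 7 each, Csf1r with 6 and C1qc with 5. The scavenger receptors were called with fewer, Mrc1 with 3 and Cd163 and Msr1 with 2 each.

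Within C1q the chains parted. C1qa and C1qc had r = 0.83 (permutation p = 6e-05, adjusted 0.000825) and rho = 0.83 (permutation p = 9e-05). C1qb had r = 0.10 with C1qa (permutation p = 0.693) and r = 0.09 with C1qc (permutation p = 0.677), with rho of 0.01 and -0.07. C1qb was called with Cd68 (r = 0.61, permutation p = 0.0145) and Csf1r (r = 0.55, permutation p = 0.0209) by r, and with no marker by rho. Without the 2 farthest animals these 2 values were 0.31 and 0.29, so that they rest on those animals. The single pair below 0 was C1qb with Mrc1, at r = -0.21 (permutation p = 0.342) and rho = -0.31.

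**Figure D3:**
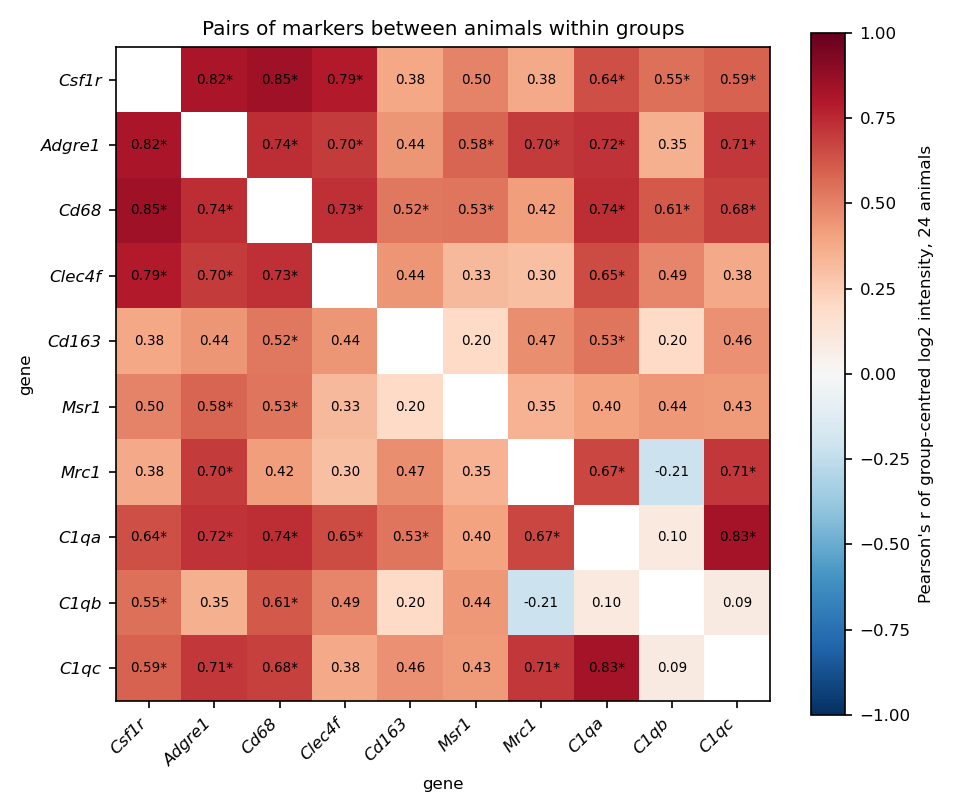
Pearson's r of group-centred log2 intensity over 24 animals for each pair of the 10 markers (colour and number, from -1 to 1), with a star where the pair was called after adjustment over 45 pairs. Stars fill the block of Csf1r, Adgre1, Cd68, C1qa and C1qc, where r runs from 0.59 to 0.85, and the row of C1qb is pale against C1qa, C1qc and Mrc1.

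When the 2 animals farthest from the median of the first gene were left out, the median over pairs was 0.45, and all 23 called pairs stayed above 0. Centring on group and run gave a median of 0.62 with 25 pairs called. Taken within runs, the median was 0.12 in the first (7 animals, 28 pairs above 0), 0.75 in the second (6 animals, 42 above 0) and 0.57 in the fourth (6 animals, 38 above 0). The third run has 5 animals, too few for a value. Without animal 63 the median was 0.45, with 18 pairs called.

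By group the median r over 45 pairs was 0.35 on 5% protein at 4 weeks, 0.61 on 20% protein at 4 weeks, 0.54 on 5% protein at 1 week and 0.72 on 20% protein at 1 week. Pairs above 0 numbered 33, 44, 36 and 44 in the same order. With 6 animals none of the 180 tests was called after adjustment (exact permutation test, smallest adjusted p = 0.150), and an unadjusted p under 0.05 was found for 3, 10, 5 and 17 pairs. The difference of the medians between groups was not tested.

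Single animals stood high or low over many markers at once. Animal 63 (20% protein, 4 weeks) was above its group mean for all 10 markers, by a median of 0.42, and was the highest of its group for 7. Animal 30 of the same group was below the mean for all 10 and lowest for 5. On 20% protein at 1 week animals 53 and 78 were above the mean for all 10, by medians of 0.25 and 0.28, and were highest for 4 and 5 of them. On 5% protein at 4 weeks the medians ran from -0.12 to 0.12, the narrowest span of the 4 groups.

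**Figure D4:**
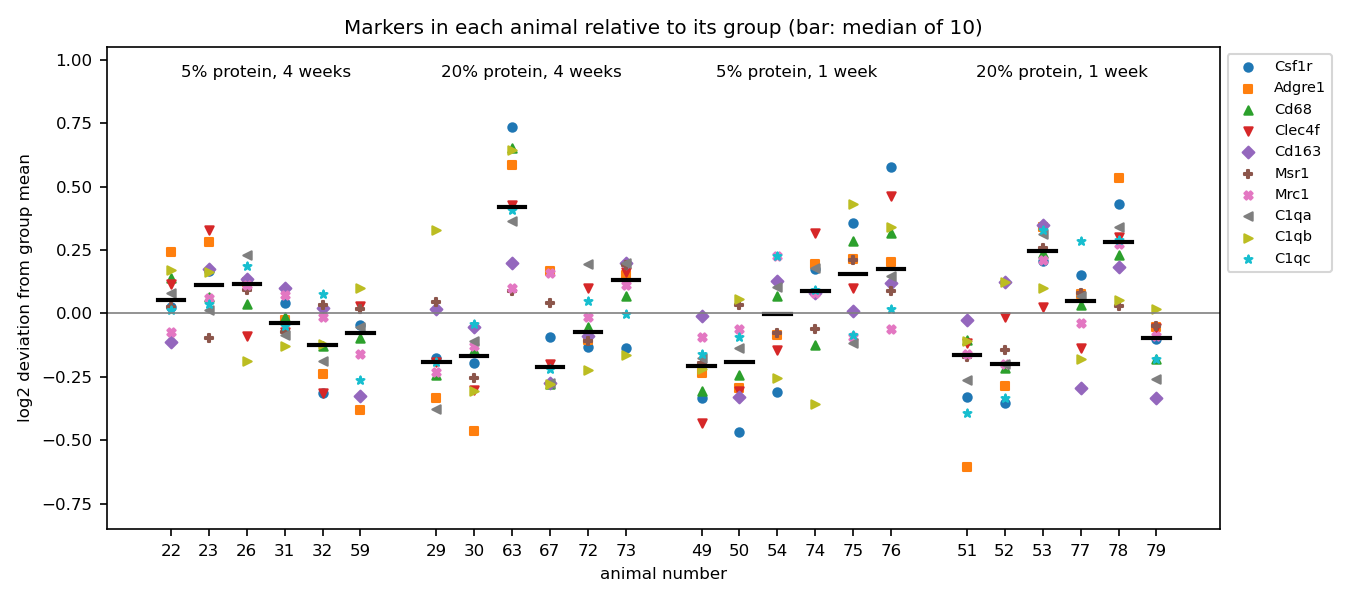
Deviation of each marker from its group mean (log2, vertical axis) in every animal, ordered by group and animal number, with the median of the 10 markers as a bar. The bar of animal 63 is the highest at 0.42, and the bars of the 5% animals at 4 weeks stay between -0.12 and 0.12.

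Outside the 10 markers, the genes whose group-centred values were most like their mean were Cfp (r = 0.93 over 24 animals), Nckap1l (0.91), P2ry13, Ptgs1 and Gpr31 (0.90 each), Ptprc and C8h19orf38 (0.88 each), Tyrobp and Fcgr1a (0.87 each) and Cybb (0.86). These r values rank genes and carry no test. Cfp encodes properdin, Ptprc the leukocyte antigen CD45, Tyrobp the adaptor DAP12, Fcgr1a an Fc receptor and Cybb a subunit of the phagocyte NADPH oxidase. Of the 10, all but C8h19orf38 (-0.45, adjusted p = 0.0832) were called lower on 5% protein at 4 weeks, where 12.4% of all genes were. The values ran from -0.68 (Ptgs1 and Cfp) to -0.43 (P2ry13).

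Lists of related genes were set beside the markers in the same fit. Some genes stand in more than 1 list, such as Nr1h3, Id3 and Spic among both the other Kupffer cell markers and the transcription regulators. Of 19 other Kupffer cell markers measured, 10 were called lower on 5% protein at 4 weeks and none higher, with a median of -0.30, against 12.4% of all genes called lower. C6, a terminal complement component that hepatocytes also make, fell by 2.46 ± 0.15 on the log2 scale (adjusted p = 2.45e-11). Il18bp, which binds and blocks interleukin-18, had -1.20 ± 0.13 (adjusted p = 2.49e-07), Vsig4, a complement receptor of Kupffer cells, -0.59 ± 0.13 (adjusted p = 0.00182), and Siglec1, the sialic acid receptor of macrophages, -0.52 ± 0.19 (adjusted p = 0.0436). Cd5l had -0.49 ± 0.21 (adjusted p = 0.0891) and the scavenger receptor Marco -0.15 ± 0.34 (adjusted p = 0.812), and neither was called. At 1 week 1 of the 19 was called, where 2.44% of all genes were called lower and 1.86% higher. It was C6, at -0.86 ± 0.15 (adjusted p = 0.00123).

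Of 16 myeloid and pan-leukocyte genes, 9 were called lower at 4 weeks, against 12.4% of all genes called lower and 13.4% called higher. All 16 were below 0, with a median of -0.44. Tyrobp had -0.63 ± 0.14 (adjusted p = 0.00137), Cd53 -0.58 ± 0.14 (0.00320), Aif1 -0.55 ± 0.12 (0.00152) and Ptprc -0.54 ± 0.15 (0.00831). Among 15 markers of monocytes and recruited macrophages, 1 rose and 1 fell, with a median of -0.16. Cd14, the co-receptor for bacterial endotoxin, rose by 0.73 ± 0.21 (adjusted p = 0.00958), and Arg1, which in liver is above all the urea cycle enzyme of hepatocytes, fell by 1.24 ± 0.26 (adjusted p = 0.000835). The monocyte receptor Ccr2 had -0.13 (adjusted p = 0.707) and the integrin Itgam -0.11 (0.849). The mean intensities of the 15 had a median percentile of 39.9 among all genes, against 87.6 for the 10 markers. With this lower signal and no detection call, a difference of the monocyte markers could be missed. Of 8 MHC class II genes 0 were called in limma at 4 weeks, with 0 at an unadjusted p under 0.05, and Cd74 had -0.03 (adjusted p = 0.956). The median of the 8 was -0.15, with 7 below 0. Their summed intensity ran from 3097 to 4600 on 5% protein and from 2945 to 9304 on 20% protein. With so wide a spread a difference could be missed.

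Regulators and ligands were read the same way. Of 13 transcription regulators of macrophages, 8 were called lower at 4 weeks, none higher, against 12.4% and 13.4% of all genes. Their median was -0.49. Spi1, which encodes PU.1, had lowest, median and highest values of 6.37, 6.43 and 6.53 on 5% protein, against 6.63, 6.90 and 7.45 on 20% protein. The groups did not overlap, and the difference was -0.49 ± 0.14 (adjusted p = 0.00916). Cebpa, a factor of hepatocytes as well as myeloid cells, had -0.65 ± 0.10 (adjusted p = 1.95e-05), Maf -0.64 ± 0.11 (0.000115) and Zeb2 -0.60 ± 0.11 (0.000145).

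Of 16 ligands of the CSF1 receptor and attractants of macrophages, 6 were called lower at 4 weeks and none higher. Of all genes 12.4% were called lower and 13.4% higher, and the median of the 16 was -0.12. Csf1, the main ligand of the receptor, had 6.79, 6.96 and 7.26 on 5% protein, against 7.22, 7.72 and 8.10 on 20% protein, a difference of -0.67 ± 0.12 (adjusted p = 0.000187). Il34, the second ligand, had 4.78, 4.89 and 5.21 on 5% protein, against 5.24, 5.32 and 5.43 on 20% protein, a difference of -0.40 ± 0.07 (adjusted p = 0.000121). Csf1 overlapped by the top of one group and the bottom of the other, and Il34 did not overlap. These Il34 values lay below the medians of the arrays over the genes tested, which were 6.23 to 6.37. With no detection call, its signal may lie near background. At 1 week Csf1 had -0.41 ± 0.12 with an adjusted p of 0.0556, and Il34 had -0.09 ± 0.07 (adjusted p = 0.582).

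Of 6 complement components around C1q, 5 were called lower at 4 weeks and 1 higher, against 12.4% and 13.4% of all genes. Their median was -0.53. C1s, a protease of the C1 complex that hepatocytes make, fell by 1.54 ± 0.19 (adjusted p = 2.33e-06), and Serping1, the C1 inhibitor, fell by 0.82 ± 0.11 (adjusted p = 4.30e-06). C1qbp rose by 1.10 ± 0.11 (adjusted p = 8.59e-08), and its product, although first found through C1q, lies mostly in mitochondria. Among 12 other scavenger receptors and genes of haem and iron handling, 1 rose (Scarb2, 0.27 ± 0.08, adjusted p = 0.0185) and 2 fell (Hp, which encodes haptoglobin, by 0.34 ± 0.09, adjusted p = 0.00665, and Colec12 by 0.49 ± 0.16, adjusted p = 0.0289). Their median was -0.03.

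**Figure D5:**
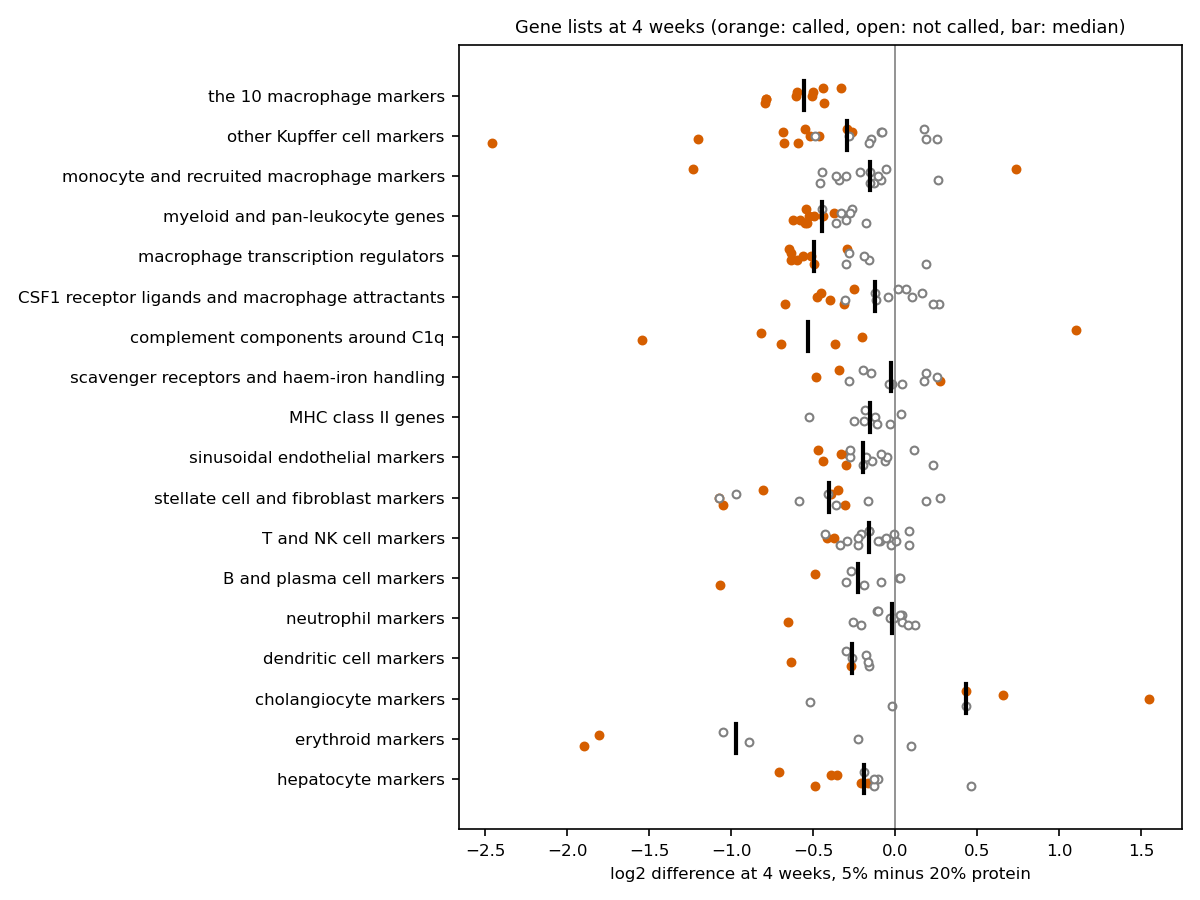
Log2 difference at 4 weeks, 5% minus 20% protein (horizontal axis), for each measured gene of the 10 markers and of 17 other lists (vertical axis), with called genes in orange, others open, and the median of a list as a bar. The 10 markers have the median -0.55, and the erythroid markers lie lower at -0.97. Close to the 10 are the complement components (-0.53), the transcription regulators (-0.49), the myeloid genes (-0.44) and the stellate cell markers (-0.40). The sinusoidal endothelial markers have -0.20 and the cholangiocyte markers 0.43.

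Some markers of other liver cells were called at 4 weeks as well, where 12.4% of all genes were called lower and 13.4% higher, and their part in the values of the 10 markers was not tested. Of 15 sinusoidal endothelial markers 5 were called lower, with a median of -0.20, led by Cdh5 at -0.47 ± 0.07 (adjusted p = 2.39e-05), while Stab2 (-0.20, adjusted p = 0.319) and Lyve1 (-0.14, 0.303) were not called. Their summed intensity was 7960 to 8766 on 5% protein, against 8599 to 10495 on 20% protein. Of 14 stellate cell and fibroblast markers 6 were called lower, with a median of -0.40 and sums of 3954 to 5187 on 5% protein, against 5083 to 8594 on 20% protein. Of 11 hepatocyte markers 6 were called lower, with a median of -0.19 and sums of 66370 to 82079 on 5% protein, against 75625 to 91052 on 20% protein. Cps1, Asgr1 and Apoh had the smallest adjusted p of these 6, and Alb, at -0.13 (adjusted p = 0.0869), was not called.

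Lymphoid, granulocyte and biliary markers were counted against the same shares of 12.4% and 13.4%. Of 18 T and NK cell markers 2 were called lower (median of the 18 -0.16), with sums of 1115 to 1527 on 5% protein, against 1461 to 2564 on 20% protein. The 2 were Cd3g and Cd4, and in rats macrophages carry CD4 too. Called lower were also 2 of 8 B and plasma cell markers (median -0.23), 1 of 12 neutrophil markers (median -0.02), 2 of 7 dendritic cell markers (median -0.26) and 2 of 6 erythroid markers (median -0.97). At 1 week 3 of the 6 erythroid markers were called lower (median -1.33), where 2.44% of all genes were and 0 of the 10 macrophage markers. Of 6 cholangiocyte markers 3 were called higher (median 0.43), with Epcam up by 1.55 ± 0.31 (adjusted p = 0.000529). Between animals within groups, the median r of a list's genes with the mean of the 10 markers was 0.76 for the myeloid genes, 0.72 for MHC class II, 0.60 for the other Kupffer cell markers and 0.58 for T and NK cells. It was 0.28 for sinusoidal endothelium, 0.20 for monocytes, 0.07 for hepatocytes, 0.02 for stellate cells and -0.04 for neutrophils. The mean intensities of the neutrophil markers had a median percentile of 25.2 among all genes, against 87.6 for the 10 markers. That percentile was 39.9 for the monocyte markers and 39.7 for the T and NK cell markers. With so low a signal and no detection call, the r and the diet median of the neutrophil markers say little about these cells.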

How the data were processed

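Liver RNA of 24 rats was measured on 1-colour whole-transcript arrays, from 500 ng of total RNA per the labels' protocols. The authors deposited intensity values per probe set after RMA on the unlogged scale, per the labels and the submitters' processing notes, and the version was not given in the sources used here. The log2 of these intensities was taken here, and array medians lay between 42.4 and 45.5 in intensity. Of 29214 probe sets, 18644 paired with 1 symbol in the array annotation, 962 with several and 9608 with none. The last 2 kinds were left out, and the probe set with the highest mean stood for a gene, which left 17245 genes.

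Group means of all 24 arrays were fitted with limma (version 3.58.1, lmFit and eBayes) in R 4.3.3, and p-values are two-sided and adjusted over all genes by Benjamini-Hochberg. Pair correlations used permutation tests written in Python with numpy 2.4.6, while scipy 1.17.1 gave the ranks and a check of the r of 1 pair. The fit and the correlations were tested on simulated data. Labels name animals by number, and no animal is in 2 groups. Members, lists and the naming rule were all chosen with earlier results of these data known. The naming rule covered every member, up to 3 called genes of smallest adjusted p per list and diet comparison, a fixed set of genes and the 10 genes most like the members. Not every gene that the rule covered is printed, and for several lists of other cell types only counts and medians are given. Timd4 and Stab1 were not analysed here, since no probe set pairs with them alone. For arrays, their number limits the precision. Alternatives were another normalization, an offset of 16, the mean over probe sets, and the lowest 33.3% of genes left out. Further ones were other eBayes settings, weights, samples, terms for run, well row or well column, and each animal left out. The labels do not say whether runs or wells are batches.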

Additional observations from a re-analysis of the deposited data

Results flagged for a closer look

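In 4 of the 40 combinations of marker and group, 1 animal stood far from the other 5 of its group, and chance gives about 1 in 20. Csf1r was 10.37 in animal 63 (20% protein, 4 weeks), where the next animal was at 9.54, and the gap was 0.890 of the range of the group. Cd68 was 9.72 in the same animal, with the next at 9.14. Clec4f was 10.34 in animal 78 (20% protein, 1 week), with the next at 10.06. Cd163 was 8.59 in animal 50 (5% protein, 1 week), with the next at 8.91.

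The interaction term in limma was called lower for 2 of the 10 markers, where 2.20% of all genes were, and for 0 with run as a covariate (adjusted p = 0.0963 for C1qa and 0.0759 for Msr1). For C1qa the difference of the effects was -0.69 (adjusted p = 0.0274), made of -0.79 at 4 weeks and -0.10 at 1 week. For Msr1 it was -0.46 (adjusted p = 0.0231), made of -0.50 at 4 weeks and -0.04 at 1 week.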

How the results depend on the processing

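No paired analysis was possible because each animal number in the titles belongs to 1 group alone. Over all alternatives the median of the 10 markers stayed below 0, from -0.71 to -0.38 at 4 weeks, -0.19 to -0.05 at 1 week, -0.56 to -0.48 over time on 5% protein, -0.15 to -0.02 over time on 20% protein and -0.54 to -0.36 for diet by time. In some settings this median was fixed beforehand. Each marker has 1 probe set, so the mean over probe sets left its values as they were. The lowest genes left out, other eBayes settings and only the 2 groups compared can change calls but not differences. With all animals kept, markers called lower were 3 within the first run and 7 within the third or with run as a covariate at 4 weeks, 1 at 1 week with the lowest genes left out (C1qb, adjusted p = 0.0418), 8 over time on 5% protein with quantile normalization, and for diet by time 0 with run as a covariate and 3 with array weights. Leaving out single animals gave 8 to 10 markers called lower at 4 weeks, 0 to 1 at 1 week, 5 to 8 for 4 weeks minus 1 week on 5% protein and 1 to 4 for diet by time. Differences of single markers that changed sign were not called in the fit of all animals. At 1 week they were Cd163 (0.022), Clec4f (0.042), Csf1r (0.18), Mrc1 (-0.064) and Msr1 (0.019) within the fourth run, Csf1r (0.042) and Msr1 (0.012) with quantile normalization, Csf1r (0.0052) with array medians centred, and Mrc1 (-0.018) with array weights. On 20% protein over time, Adgre1 was 0.00058 with array medians centred. With single animals left out, the ranges that crossed 0 were, at 1 week, Adgre1 (-0.20 to 0.028), Csf1r (-0.14 to 0.069), Mrc1 (-0.036 to 0.063) and Msr1 (-0.082 to 0.011), on 20% protein over time Adgre1 (-0.18 to 0.047), C1qa (-0.045 to 0.10) and C1qc (-0.068 to 0.079), and for diet by time C1qb (-0.16 to 0.037). Counts of all genes called lower and higher also moved: at 1 week from 420 and 321 to 168 and 168 with well row as a random block, and to 812 and 494 or 768 and 696 within single runs. Centring of medians gave 299 and 374 there, and quantile normalization 320 and 411. At 4 weeks 2147 and 2308 became 1300 and 1434 within the first run and 946 and 1178 within the third. On 20% protein over time 259 and 176 (435 in all) became 202 in all with well row, 174 and 341 with medians centred, 421 lower with array weights, and 117 higher with only the 2 groups compared. For diet by time 380 and 611 became 588 and 952 with array weights and 175 and 311 with run. The causes were not tested. The median pair correlation ran from 0.45 to 0.62 over its alternatives, with 18 to 26 pairs called. These alternatives do not include single runs, where the median was 0.12 in the first, 0.75 in the second and 0.57 in the fourth. Nor do they include single groups, where it ran from 0.35 (5% protein, 4 weeks) to 0.72 (20% protein, 1 week).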

Other observations

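The genes nearest to single markers, which were picked after their values were seen, differ from marker to marker. By r of group-centred values over 24 animals, given as a description with no test, Csf1r was nearest to Cybb and Cd4 (0.93 each) and the class II genes RT1-Ba (0.91) and RT1-Da (0.90), and in rats macrophages carry CD4. Cd68 was nearest to Ptgs1 (0.90) and Tyrobp (0.88), Clec4f to Ctss (0.87), which encodes cathepsin S, and Adgre1 to Nckap1l (0.87) and Ptprc (0.86). C1qa was nearest to Il18 (0.85), and C1qc to Plau (0.88) and Iqgap1 (0.86). C1qb was nearest to Arhgdib (0.88), Fcer1g (0.86), Pla2g2d and Srgn (0.85 each) and the Kupffer cell folate receptor Folr2 (0.83). These values describe the same 24 arrays and share their quality.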
